A study of Mus musculus with 43 samples.

Results

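Immediate early genes were followed across 43 bulk RNA sequencing libraries of sorted mouse brain endothelial cells. The set was chosen by symbol and holds 10 genes of the 54532 in the deposited count table: Fos, Fosb, Jun, Junb, Egr1, Ier2, Atf3, Dusp1, Nr4a1 and Zfp36. All 10 passed the filter on low counts that left 29120 genes. The endothelial cells were sorted as CD31-positive, CD45-negative and CD11b-negative cells from enzymatically digested cortex or hippocampus of mice aged 2 months. The mice belonged to 7 strains. The long-inbred strains C57BL/6J (6 libraries), DBA/2J (5), A/J (5), NOD/ShiLtJ (6) and 129S1/SvImJ (9) gave 31 libraries, and the wild-derived strains CAST/EiJ (6) and WSB/EiJ (6) gave 12. Of the 43 libraries 21 were cortex and 22 hippocampus, and 16 were female and 27 male. Each title also carries the tag high or low, which the labels and the study do not define. Of the female libraries 15 are titled high and 1 low, while 14 male libraries are titled high and 13 low. The labels do not give the mouse behind a library. Cortex and hippocampus libraries may share an animal, and so may libraries titled high and low. The p-values measure the spread between libraries only.

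Immediate early genes are transcribed soon after a cell receives a signal, from transcription factors that are already present and without new protein synthesis. Serum response factor, which binds the CArG box, and CREB, which binds the cAMP response element (CRE), are the classical activators of this class. Fos and Fosb encode proteins that pair with the products of Jun and Junb to form the dimeric factor AP-1, Atf3 encodes a stress-induced relative of these factors, and Egr1 encodes a zinc finger factor. Nr4a1 encodes an orphan nuclear receptor and Ier2 a small early response protein. Dusp1 and Zfp36 act as brakes: the DUSP1 phosphatase inactivates MAP kinases, and ZFP36 (tristetraprolin) binds AU-rich messenger RNAs and promotes their decay. In endothelium the class is known to respond to flow, growth factors and cytokines, and in many tissues it is also known to rise while cells are being dissociated and sorted. Neither signal was measured here.

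The promoters of the members called in one of the comparisons below (Fos, Jun, Atf3 and Dusp1) are shown with that of Nr4a1, which holds the most CRE sites. Promoter sequence came from RefSeq on build GRCm38.p6 and covers the 250 bases before each start site, read on the strand of the gene. Capitals mark the core TGACG of the CRE, read on both strands so that it also appears as CGTCA, and in Fos the TATA box TATAA.
Fos: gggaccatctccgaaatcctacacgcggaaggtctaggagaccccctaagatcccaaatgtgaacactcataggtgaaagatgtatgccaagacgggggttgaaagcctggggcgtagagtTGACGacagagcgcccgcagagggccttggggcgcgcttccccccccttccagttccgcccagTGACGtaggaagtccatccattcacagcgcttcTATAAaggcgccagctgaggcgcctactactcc
Jun: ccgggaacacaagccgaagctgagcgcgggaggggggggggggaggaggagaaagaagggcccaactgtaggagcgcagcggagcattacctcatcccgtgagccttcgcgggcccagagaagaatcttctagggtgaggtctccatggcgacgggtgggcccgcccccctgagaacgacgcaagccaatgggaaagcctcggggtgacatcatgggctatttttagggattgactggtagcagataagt
Atf3: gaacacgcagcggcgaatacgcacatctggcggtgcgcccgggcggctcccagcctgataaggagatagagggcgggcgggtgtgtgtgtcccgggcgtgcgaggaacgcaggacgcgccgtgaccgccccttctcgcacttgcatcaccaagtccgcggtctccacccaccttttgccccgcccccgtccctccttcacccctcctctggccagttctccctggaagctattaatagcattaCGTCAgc
Dusp1: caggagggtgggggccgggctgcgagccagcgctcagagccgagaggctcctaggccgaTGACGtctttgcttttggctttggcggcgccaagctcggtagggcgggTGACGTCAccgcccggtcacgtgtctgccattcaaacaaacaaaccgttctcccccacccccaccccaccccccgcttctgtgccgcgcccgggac
Nr4a1: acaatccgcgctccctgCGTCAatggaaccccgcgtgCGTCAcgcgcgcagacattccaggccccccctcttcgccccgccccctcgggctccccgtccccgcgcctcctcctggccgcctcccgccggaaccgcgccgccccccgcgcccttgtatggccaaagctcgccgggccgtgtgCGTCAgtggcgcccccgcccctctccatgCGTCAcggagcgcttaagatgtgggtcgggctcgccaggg
Fos lies on chr12:85473640-85473889 (plus strand), Jun on chr4:95052223-95052472 (minus strand), Atf3 on chr1:191183334-191183583 (minus strand) and Nr4a1 on chr15:101266596-101266845 (plus strand). The Dusp1 stretch, chr17:26508520-26508722 (minus strand), ends at position -48, because the bases closer to the start lie in an annotated exon of GENCODE release M21. The windows of Atf3, Dusp1 and Nr4a1 lie before RefSeq start sites that are inside the longer genes annotated by GENCODE. The last 7 bases of the Atf3 window, which hold its only CRE core, lie in an annotated exon.

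Promoter windows from RefSeq were read for 8 members, without Egr1 and Ier2. The CRE core was found in 6 of the 8, Fos, Fosb, Junb, Atf3, Dusp1 and Nr4a1, against 17.8% of all 32851 promoter windows of the same length. Fos held it at -129 and -66, Dusp1 at -191, -143 and -140, of which the last pair overlap in the palindrome TGACGTCA, and Nr4a1 at -233, -213, -69 and -40. The TATA box at -33 was found in Fos alone among the 8 (22.8% of all windows). A CArG box was found in the Zfp36 window alone, at -58 (1.47% of all windows), and the AP-1 site TGANTCA in none of the 8 (6.75% of all windows). Bases further upstream were not read, so a missing match, such as the CArG box in Fos, holds for these windows only. These matches describe the letters in the windows and are not evidence of binding in these cells.

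Total counts ran from 1626534 to 49372356 per library. Depth differed by sex, from 2731954 to 49372356 (median 2.12e+07) in female and from 1626534 to 10567966 (median 5.26e+06) in male libraries. All 20 endothelial markers were detected, with 2 libraries at 0 for Ly6c1 alone, and Pecam1 had a median of 857 CPM, the count scaled to library size with TMM factors. Most microglial genes were near 0, with median CPM of 0.165 for Cx3cr1 and 0 for Aif1 and Trem2, and neuronal transcripts were present, with medians of 58.6 CPM for Snap25 and 280.0 CPM for Camk2a. The pericyte marker Rgs5 (median 3465 CPM) and the astrocyte marker Slc1a2 (2690 CPM) stood above Pecam1. They were the highest of their lists, followed by Vtn (342 CPM) and Aldoc (204 CPM), both below Pecam1. The highest endothelial marker was Flt1 (4979 CPM). Female libraries held 1.59% to 12.1% of reads on the ribosomal-RNA-like genes Gm23935, Gm42418 and Gm26917, and male libraries 12.97% to 29.3%, without overlap. The sex of a library therefore cannot be told apart from whatever set this share.

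Jun was the most abundant member. Per exon length, as median RPKM, which is CPM per kilobase of exon, over the 43 libraries, Jun stood at 80.2 and Ier2 at 63.4, followed by Dusp1 (24.5), Junb (20.996), Zfp36 (16.4), Egr1 (13.5) and Fos (12.7), with Nr4a1 (6.596), Atf3 (2.71) and Fosb (2.45) lowest. On the CPM scale Fos ran from 0 to 596 CPM with a median of 29.8, while Jun ran from 87.6 to 1336 with a median of 256. The standard deviation of log2(CPM + 1) over the libraries was 2.52 for Fos, which ranked 15 among 10649 genes with a mean of at least 5 CPM, and 1.86 for Junb. It was 0.87 for Jun, 1.09 for Zfp36, 1.32 for Dusp1 and 1.38 for Ier2, against a median of 1.18 over those genes. Fos was thus among the most variable transcripts of the endothelial libraries, and its AP-1 partner Jun varied less than the median gene.

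**Figure D1:**
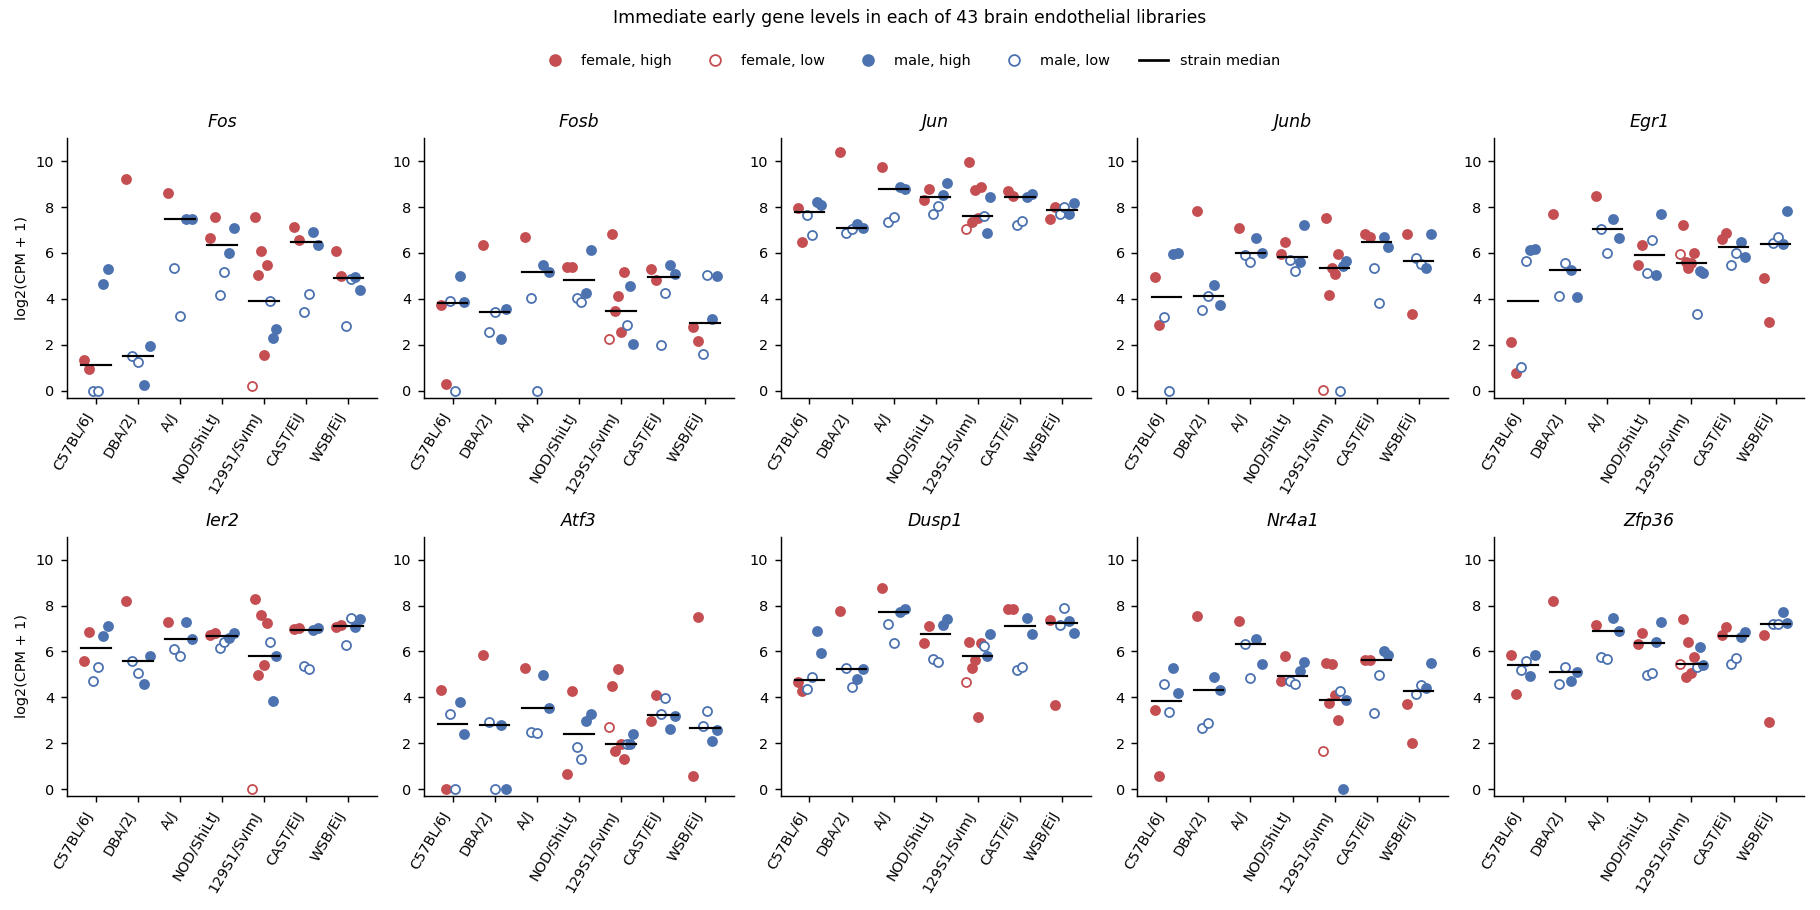
Level of each member, log2(CPM + 1), in each of the 43 libraries by strain, coloured by sex and filled by title tag (open, low), with the strain median as a line. Fos spans 0 to 596 CPM while Jun stays at or above 87.6 CPM in every library, and the single female DBA/2J library stands apart from the 4 male DBA/2J libraries.

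The highest values of the members fell in few libraries. The female hippocampus library of DBA/2J held the maximum of 5 members: Fos (596 CPM), Jun (1336), Junb (223), Nr4a1 (184) and Zfp36 (289). The 4 male DBA/2J libraries had Fos at 0.173, 1.35, 1.84 and 2.80 CPM and Jun at 116, 129, 135 and 152 CPM, so the strain held both the highest and some of the lowest levels. The female hippocampus library of A/J held the maximum of Egr1 (352 CPM) and Dusp1 (433 CPM). One of the 3 female cortex libraries of 129S1/SvImJ titled high held the maximum of Fosb (112 CPM) and Ier2 (315 CPM). Libraries of 1 strain, sex, region and tag also differed: these 3 libraries of 129S1/SvImJ had Fos at 190, 32.3 and 1.98 CPM and Jun at 1007, 162 and 181 CPM. Atf3 went its own way, with its maximum of 182 CPM in the female cortex library of WSB/EiJ. In that library Zfp36 was at its minimum of 6.48 CPM and Dusp1 at 11.7 CPM. The C57BL/6J female cortex library was lowest over the set as a whole, with Fos at 0.942, Egr1 at 0.707 and Nr4a1 at 0.471 CPM.

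**Figure D2:**
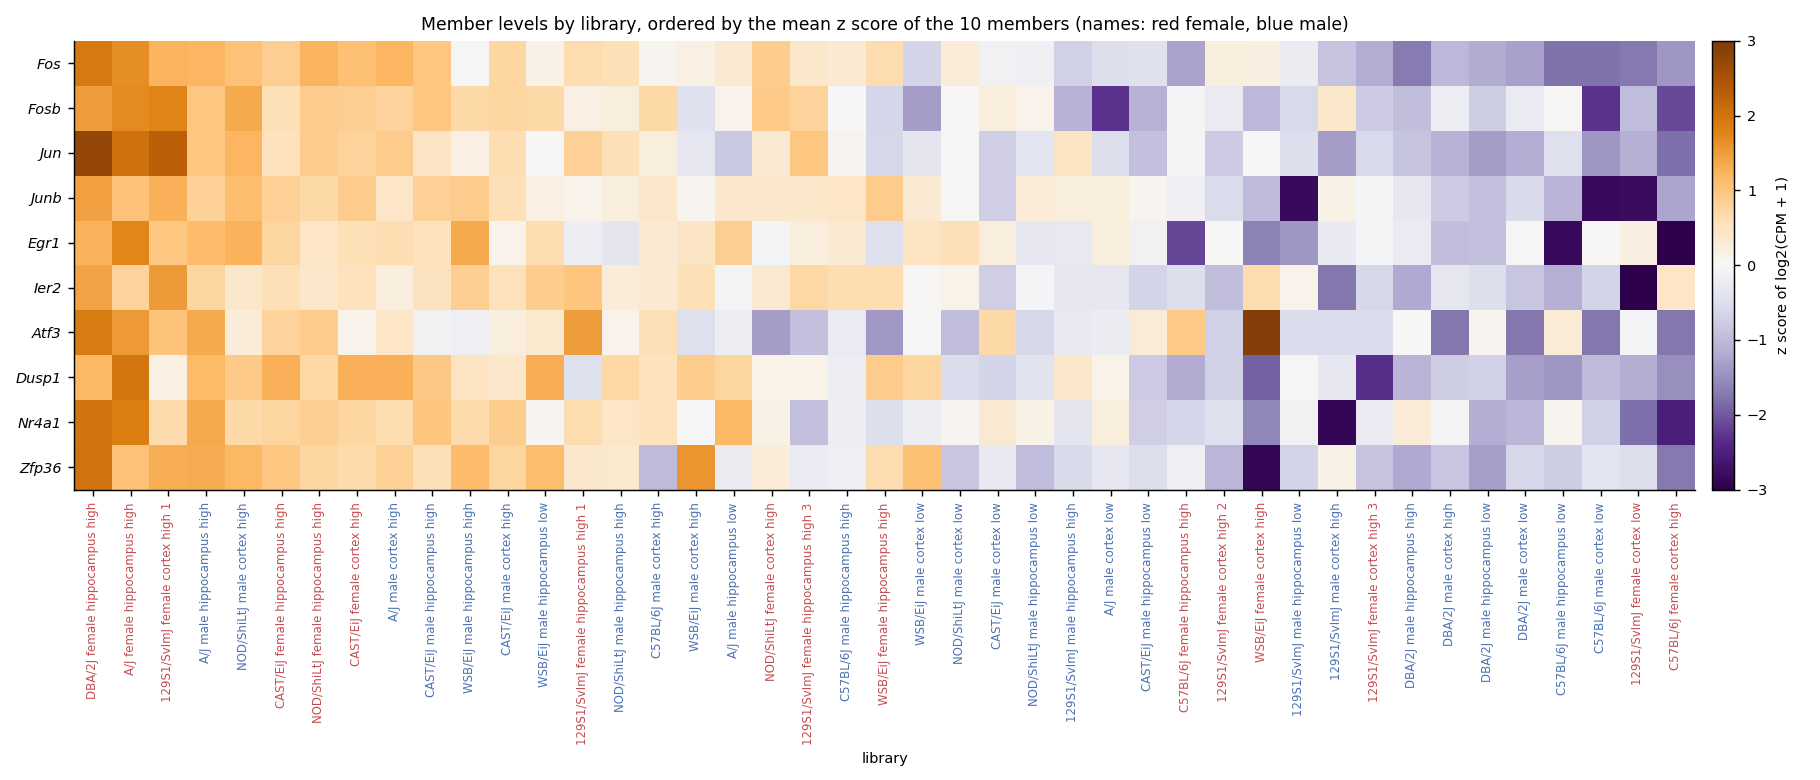
Each member's log2(CPM + 1), as a z score over the 43 libraries (colour), with libraries along the x axis ordered by the mean z score of the 10 members. The female DBA/2J hippocampus library is at the high end (mean z score 1.73) and the female C57BL/6J cortex library at the low end (-1.66).

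Within male mice, libraries titled high and low could be compared. Fos and Jun rose in the high libraries, and none of the 10 members had a negative fitted difference. Fos had a lowest, median and highest level of 0, 9.72 and 39.5 CPM in the 13 low libraries and of 0.173, 33.9 and 179 CPM in the 14 high libraries. Of the high libraries 6 lay above every low library, while the remaining ones overlapped with them. The fitted log2 fold change of Fos was 2.19 (SE 0.55, adjusted p = 0.0253, edgeR quasi-likelihood test with Benjamini-Hochberg adjustment over 27529 genes). The counts of Fos were 0 in 2 low libraries, both of C57BL/6J.

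Jun, the AP-1 partner of Fos, rose by a smaller fold. Its lowest, median and highest levels were 110, 191 and 264 CPM in the low libraries and 115, 321 and 533 CPM in the high libraries. All 13 low libraries lay below the median of the high ones, and 10 of the 14 high libraries lay above every low one. The log2 fold change was 0.79 (SE 0.18, adjusted p = 0.00843 by edgeR). These 2 calls among 10 members stand against 0.294% of all genes called higher in high libraries and 1.06% called in either direction.

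The remaining members did not pass the adjusted threshold. Their fitted log2 fold changes were 1.35 for Fosb, 1.21 for Junb, 0.79 for Zfp36, 0.73 for Dusp1, 0.70 for Nr4a1, 0.64 for Ier2, 0.63 for Egr1 and 0.54 for Atf3. An unadjusted p under 0.05 was reached by 7 members in all, with Egr1, Atf3 and Nr4a1 above it. The median over the 10 members was 0.76, against 0.04 over all genes tested. Junb had 8 of 14 high libraries above every low library. Ier2 and Dusp1 had 0, since the male WSB/EiJ hippocampus library titled low exceeded every high library for both (175 and 237 CPM).

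The 13 strain and region combinations with 1 male library of each tag gave the same contrast within strain and region. Jun was higher in the high library in 13 of 13 pairs, with a median difference of 0.86 in log2(CPM + 1) and a range of 0.02 to 1.53. Dusp1, Nr4a1 and Zfp36 were higher in 11 of 13 pairs, Fos, Junb and Ier2 in 10, Fosb and Egr1 in 9 and Atf3 in 6. The pairs of A/J carried the pattern in full, with 10 of 10 members higher in both regions, as did NOD/ShiLtJ cortex. In DBA/2J hippocampus and WSB/EiJ hippocampus only 5 of 10 members were higher. With strain and region as a block, where 2.30% of all genes were called, edgeR called 6 members: Fos (log2 fold change 2.17, adjusted p = 0.00139), Jun (0.81, 5.02e-05), Junb (1.503, 0.00714), Dusp1 (0.999, 0.00214), Ier2 (0.77, 0.0342) and Zfp36 (0.75, 0.0369).

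**Figure D3:**
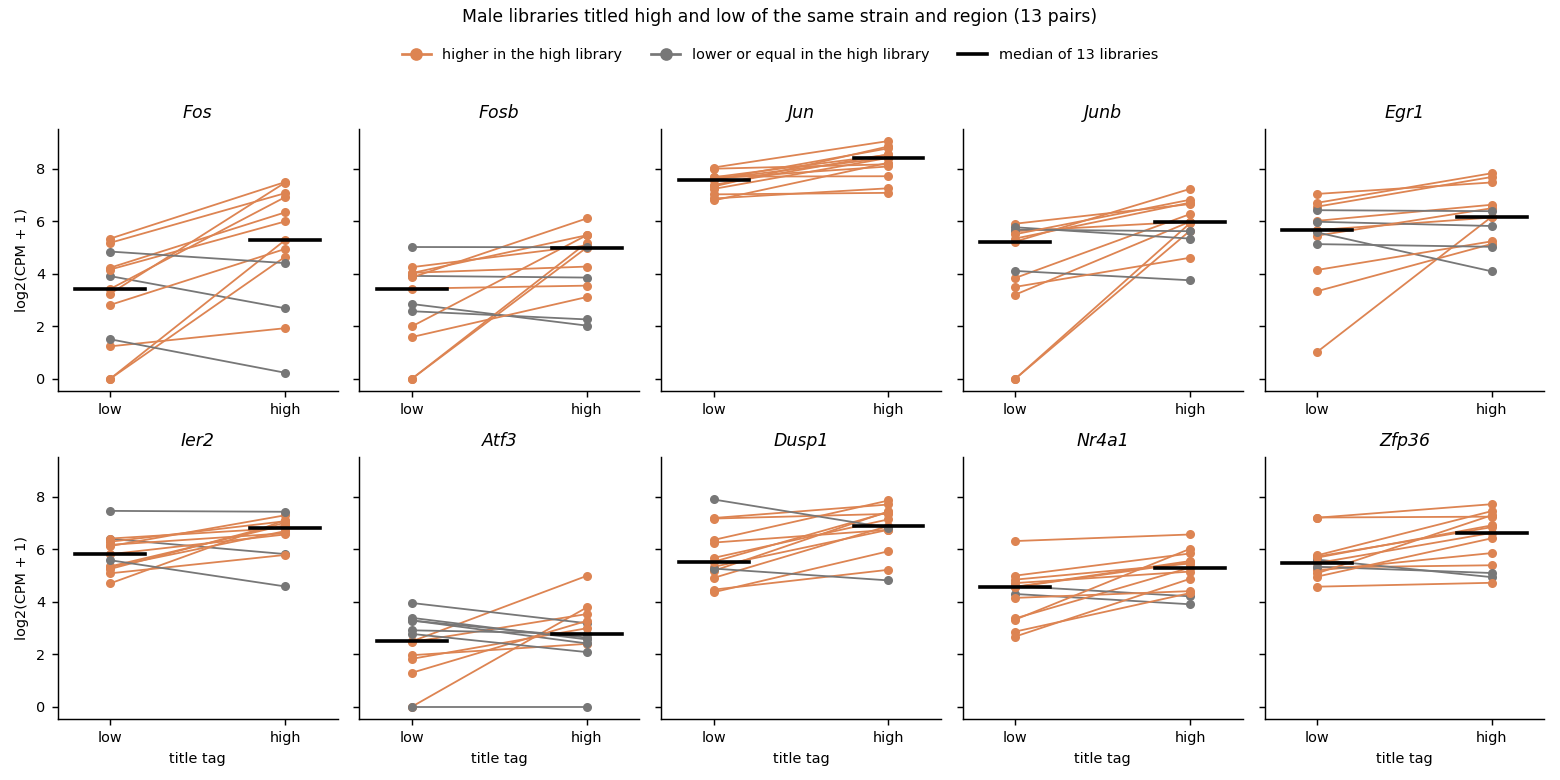
Member levels, log2(CPM + 1), in the male library titled low and the male library titled high of the same strain and region, joined by a line for each of 13 pairs, with medians as black bars. Orange lines rise from low to high and grey lines do not. Jun rises in 13 of 13 pairs and Atf3 in 6.

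Cell type markers moved with the same tag. In high libraries 18 of 20 endothelial markers had a positive log2 fold change, 5 were called higher and 1, Erg, lower, and the mean log2(CPM + 1) of the list ran from 8.51 to 9.68 in high and from 8.80 to 9.31 in low libraries. All 8 neuronal, all 10 astrocyte and all 6 oligodendrocyte markers had a negative log2 fold change, with 3, 3 and 1 called lower and a median of -1.06 for the oligodendrocyte list. The neuronal mean ran from 3.35 to 6.10 in high and from 4.73 to 6.61 in low libraries, and the astrocyte mean from 4.99 to 6.94 and from 6.33 to 7.92. Of the pericyte markers Rgs5 was called lower in high libraries, while 8 of 10 had a positive log2 fold change (median 0.15). With the endothelial mean as a covariate the log2 fold change of Fos was 1.13 (adjusted p = 0.805) and that of Jun 0.53 (adjusted p = 0.383), and with the neuronal mean 1.29 (0.980) and 0.46 (0.824), so edgeR called 0 members in either fit, with 5 and 1 at an unadjusted p under 0.05. What part these cells have in the result was not tested. In bulk samples fewer cells of a type and less RNA per cell cannot be told apart. Fos and Jun were also both lost when A/J, C57BL/6J or CAST/EiJ was left out (0 members called by edgeR each, with 7, 6 and 5 at an unadjusted p under 0.05), although the log2 fold changes remained between 1.87 and 2.06 for Fos and between 0.65 and 0.75 for Jun.

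Between the sexes Jun and Atf3 were called, both higher in female libraries. Jun had a lowest, median and highest level of 87.6, 335 and 1336 CPM in the 16 female and of 110, 207 and 533 CPM in the 27 male libraries (log2 fold change 0.80, SE 0.21, adjusted p = 0.0173 by edgeR). The groups overlapped, with 3 female libraries above every male one. Atf3 ran from 0 to 182 CPM with a median of 11.5 in female and from 0 to 30.6 with a median of 5.202 in male libraries (log2 fold change 1.94, SE 0.51, adjusted p = 0.0146), with 4 female libraries above every male one. Fos followed with a log2 fold change of 1.63 (SE 0.52, adjusted p = 0.0756), medians of 66.1 and 17.8 CPM and 4 female libraries above every male one, and it was called in 6 of 20 alternative fits. These 2 calls in 10 stand against 2.56% of all genes called higher in female libraries and 2.85% in either direction. The remaining fitted values, from 0.20 for Egr1 to 0.86 for Fosb, were not called.

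Single libraries carried both calls. Without the female DBA/2J hippocampus library edgeR called 0 members, 3 of them at an unadjusted p under 0.05, with log2 fold changes of 0.57 for Jun (adjusted p = 0.165) and 1.77 for Atf3 (adjusted p = 0.0501). Without the female WSB/EiJ cortex library, where Atf3 was at 182 CPM, Jun was called and Atf3 was not (log2 fold change 1.19, adjusted p = 0.301). Among libraries titled high alone, the log2 fold change of Jun was 0.51 (adjusted p = 0.388) and that of Atf3 1.72 (adjusted p = 0.190), and 0 members were called by edgeR, with 1 at an unadjusted p under 0.05. Sex and tag overlap in this design, since 15 of 16 female libraries are titled high. With the ribosomal-RNA-like share as a covariate edgeR called 0 members, with 7 at an unadjusted p under 0.05, and the log2 fold changes were 1.57 for Jun (adjusted p = 0.0891) and 1.81 for Atf3 (0.565). Egfl7, Esam and Itm2a of the endothelial markers were called higher and Slc1a2 and Slc1a3 of the astrocyte markers lower in female libraries. Of the 20 endothelial markers 10 had a positive log2 fold change (median 0.008), and of the 10 astrocyte markers 1 (median -0.38). Of 6 choroid plexus markers 5 had a positive log2 fold change (median 1.87) and Ttr was called higher, with a list mean in log2(CPM + 1) from 0 to 4.63 in female and from 0 to 2.45 in male libraries. Their part in the result was not tested.

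**Figure D4:**
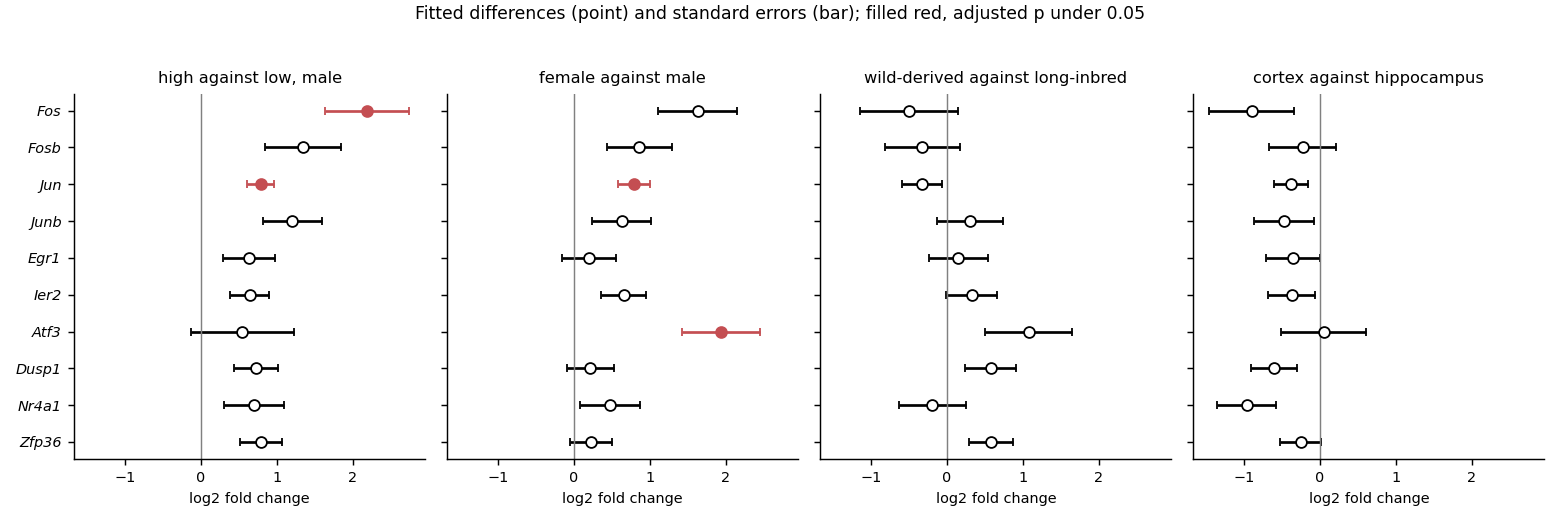
Fitted log2 fold change of each member (point) with its standard error (bar) in 4 comparisons, with red filled points for an adjusted p under 0.05. Called are Fos (2.19) and Jun (0.79) for the tag in male libraries and Jun (0.80) and Atf3 (1.94) for sex, and 0 members for origin and region.

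Among the 7 strains Dusp1 was called (adjusted p = 0.00797, edgeR test of 6 coefficients), against 2.68% of all genes. Dusp1, the MAP kinase phosphatase, was highest in A/J with a median of 207 CPM (range 80.8 to 433, n = 5), followed by WSB/EiJ (152, 11.7 to 237, n = 6), CAST/EiJ (139, 35.1 to 231, n = 6) and NOD/ShiLtJ (110, 44.9 to 169, n = 6). Lower medians were found in 129S1/SvImJ (54.6, 7.94 to 106, n = 9), DBA/2J (36.2, 20.997 to 214, n = 5) and C57BL/6J (26.5, 18.1 to 117, n = 6). Every neighbouring pair of strains in this order differed by less than the larger of the 2 standard deviations of log2(CPM + 1). Without the female A/J hippocampus library the call was lost (adjusted p = 0.0587). Cell type markers also differed among the strains, with 8 of 20 endothelial, 6 of 10 pericyte, 2 of 10 smooth muscle, 2 of 10 astrocyte, 1 of 8 neuronal and 1 of 6 choroid plexus markers called. The pericyte mean in log2(CPM + 1) ran from 6.64 in 129S1/SvImJ to 7.79 in WSB/EiJ, and the endothelial mean from 8.87 in WSB/EiJ to 9.39 in A/J. Their part in the strain result was not tested.

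Fos followed a similar order of strain medians, from 177 CPM in A/J, 87.5 in CAST/EiJ, 81.4 in NOD/ShiLtJ, 28.8 in WSB/EiJ and 14.1 in 129S1/SvImJ to 1.84 in DBA/2J and 1.22 in C57BL/6J, with adjusted p = 0.164 over all libraries. NOD/ShiLtJ and WSB/EiJ were the only neighbours that differed by more than the larger standard deviation. Over the 10 members A/J had the highest median of 7, WSB/EiJ of 2 and CAST/EiJ of 1, and the lowest median fell to C57BL/6J and DBA/2J for 4 each. Unadjusted p-values under 0.05 were found for Fos, Egr1, Dusp1, Nr4a1 and Zfp36. Within the 27 male libraries, where 1.72% of all genes were called, edgeR called 4 members: Fos (adjusted p = 6.55e-06), Dusp1 (0.0003), Zfp36 (0.000231) and Egr1 (0.00942). Within the 16 female libraries (0.906% of all genes called) it called Egr1 (0.0018), and Dusp1 had an adjusted p of 0.0968. Without the female DBA/2J hippocampus library alone, 5 members were called among strains against 2.88% of all genes, Fos (0.000142), Dusp1 (0.000128), Zfp36 (0.0173), Nr4a1 (0.0417) and Jun (0.0441). DBA/2J and A/J, whose female libraries changed these calls, have 1 female library each. Libraries of the same strain and sex may share a mouse, so strain and mouse cannot be told apart in these fits. The ribosomal-RNA-like share also followed strain in female libraries. It was at least 9.66% where the strain median of Fos was 81.4 CPM or more, and at most 4.05% in the remaining strains. In male libraries these strains overlapped in the share. With the share as a covariate edgeR called Dusp1 alone among strains. Its part in the strain order of Fos was not tested.

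Wild-derived and long-inbred strains did not differ in any member after adjustment (0 of 10 called, 0.749% of all genes). The unadjusted p was under 0.05 for 1 member, Zfp36, with a log2 fold change of 0.59 (SE 0.29, adjusted p = 0.704) and medians of 109 CPM in wild-derived and 50.3 CPM in long-inbred libraries. Fitted values ran from -0.50 for Fos to 1.08 for Atf3, with 6 of 10 positive. DESeq2 called 0 members as well, with 0 at an unadjusted p under 0.05. The 2 wild-derived strains had Fos medians of 87.5 CPM (CAST/EiJ) and 28.8 CPM (WSB/EiJ), a difference that was not tested.

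Cortex and hippocampus did not differ in any member after adjustment (0 of 10 called, 0.0755% of all genes). Nr4a1 came closest, with medians of 20.2 CPM in cortex and 26.7 in hippocampus and a fitted log2 fold change of -0.97 (SE 0.38, unadjusted p = 0.0142, adjusted p = 0.669), the only member at an unadjusted p under 0.05, and DESeq2 called 0 members with 2 at an unadjusted p under 0.05. Of the members 9 of 10 had a negative fitted value. In the 19 pairs of libraries that share strain, sex, tag and title number, Junb was higher in hippocampus in 14, Atf3 and Nr4a1 in 13, Egr1 in 12, Fos and Ier2 in 11, and Jun in 9. Female hippocampus libraries had higher medians than female cortex libraries for Fos (80.6 against 31.5 CPM), Jun (433 against 219) and Dusp1 (151 against 31.3), with n = 8 in each, while in male libraries the medians were 18.6 and 17.8 for Fos and 230 and 207 for Jun. The female groups differ in strain, since the DBA/2J and A/J libraries, the highest over the set, are hippocampus and 4 of the 8 cortex libraries are 129S1/SvImJ. The neuronal marker mean in log2(CPM + 1) was 5.40 in female cortex and 4.45 in female hippocampus libraries, and its part in the difference was not tested. The interaction of sex and region was not called for any member (0.00343% of all genes called), with unadjusted p = 0.0222 for Zfp36 and 0.0313 for Dusp1 and adjusted p = 0.9999 for both. The interactions of origin with sex (0.0206% of all genes called) and of tag with region in male libraries (0.00% of all genes called by edgeR, 563 at an unadjusted p under 0.05, 42 called by DESeq2) were called for 0 of 10 members, with 0 at an unadjusted p under 0.05. DESeq2 called 0 members in each of the 3 interactions, with 1 at an unadjusted p under 0.05 for sex and region and 0 for the other two.

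The members varied together from library to library. All 45 pairs had a positive Pearson r of log2(CPM + 1) over the 43 libraries, from 0.21 (Egr1 and Atf3) to 0.82 (Fos and Jun), with a median of 0.61 and a median Spearman rho of 0.66. A permutation test with 100000 resamples and Benjamini-Hochberg adjustment over 450 values (both measures and 5 sets of libraries) gave an adjusted p under 0.05 for 39 of 45 r values and 45 of 45 rho values. Pairs of other genes were not read, so no share over all genes stands beside these counts. Fos and Jun, whose products form AP-1, had r = 0.82 and rho = 0.84 (permutation p = 1.0e-05 for both, the smallest possible, adjusted p = 8.5e-05), and r stayed at 0.83 after the 2 most extreme libraries for Fos were dropped. The brakes Dusp1 and Zfp36 had r = 0.79 and rho = 0.78, with r = 0.77 after the same step for Dusp1. Pairs with Atf3 ran from r = 0.21 with Egr1 to 0.60 with Jun (permutation p = 2.0e-05, adjusted p = 0.00012). Atf3 had r = 0.24 with Dusp1 (permutation p = 0.125) and 0.22 with Zfp36 (permutation p = 0.151), which became 0.40 and 0.47 after the 2 most extreme libraries were dropped. The first principal component of the 10 members held 62.3% of their variance and the second 10.6%. Libraries that share a mouse would not be independent points.

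The same pattern was found within each sex and within the male libraries titled high. Median r was 0.73 over the 45 pairs in female (n = 16), 0.56 in male (n = 27) and 0.64 in male libraries titled high (n = 14), with all 45 pairs positive in each. It was 0.37 in male libraries titled low (n = 13), where 43 of 45 pairs were positive and 8 r values passed the adjusted threshold. Fosb and Jun had r = 0.92 in female and 0.60 in male libraries, and Fos and Dusp1 r = 0.82 and 0.80. The difference between the sexes was not tested.

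**Figure D5:**
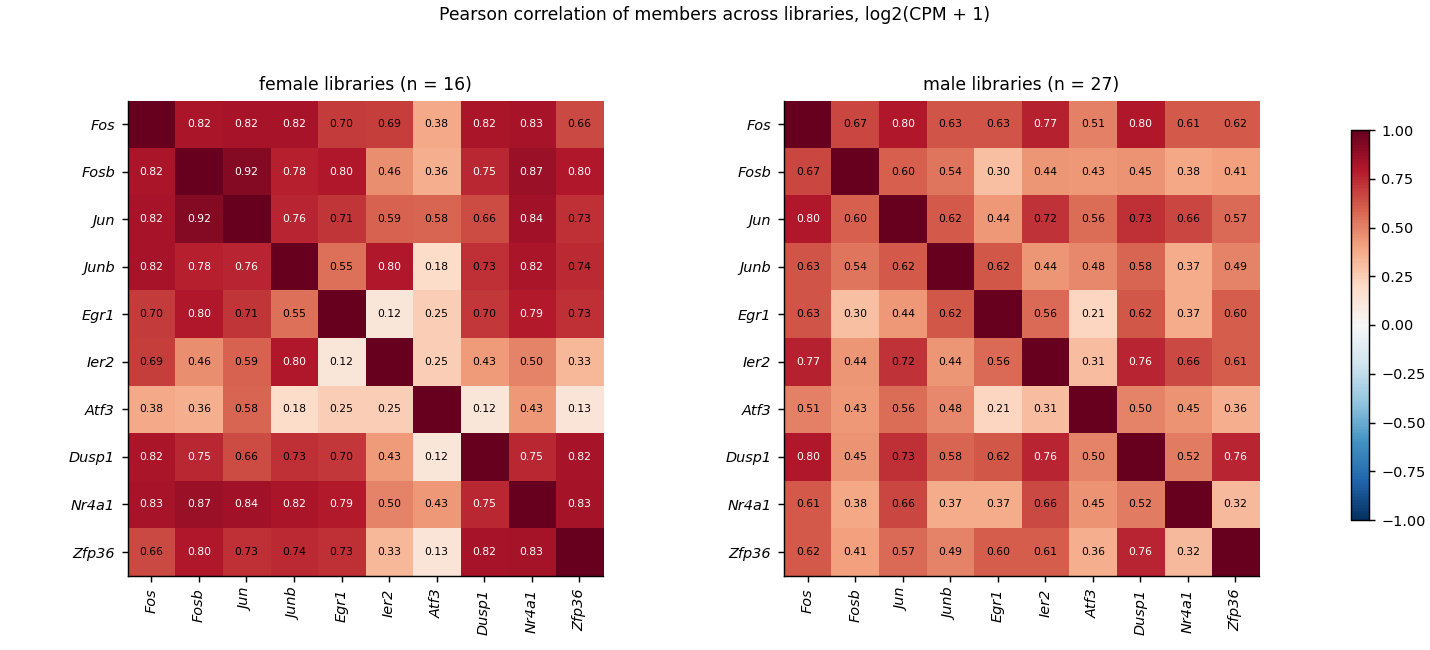
Pearson r (colour and number) between members over the 16 female libraries on the left and the 27 male libraries on the right, from log2(CPM + 1). All 45 pairs are positive in both, and in female libraries r runs from 0.12 (Atf3 and Dusp1) to 0.92 (Fosb and Jun).

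Measures of the libraries were set against the members. Over the 43 libraries the members' r with the endothelial marker mean ran from 0.09 to 0.51 and with the neuronal marker mean from -0.51 to -0.06. After adjustment over 700 values, 2 relations passed, both by rank: Jun with the endothelial mean (rho = 0.61, permutation p = 5.0e-05, adjusted p = 0.035, with r = 0.51) and Junb with the neuronal mean (rho = -0.58, permutation p = 1.0e-04, adjusted p = 0.035, with r = -0.42). Within female and within male libraries 0 of these relations passed. All 10 members had a positive r with the endothelial mean in each sex. In male libraries titled low the median r with the endothelial mean was -0.22, with 2 of 10 positive. With the neuronal mean it was 0.095 there, with 7 of 10 positive, and 0 of these passed. Over the 43 libraries the r with log2 total count ran from 0.02 to 0.46 and with the ribosomal-RNA-like share from -0.15 to 0.32, 0 of them passing. Since the sexes do not overlap in this share, it was also read within each. All 10 members had a positive r with it in female (0.07 to 0.65, median 0.39), in male (0.13 to 0.58, median 0.33) and in male libraries titled high (0.28 to 0.67, median 0.50), 0 of them passing the adjusted threshold. In male libraries titled low 9 of 10 were positive (median 0.35), with 0 passing.

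Related genes outside the 10 members were read from 7 lists. Of 11 tested AP-1 partners 0 were called by tag in male libraries or by sex. Atf4, a stress-responsive factor of the same superfamily, had log2 fold changes of 0.60 by tag (adjusted p = 0.542) and 0.51 by sex (adjusted p = 0.311). Of the 5 EGR and NR4A relatives 0 were called, with log2 fold changes by tag from -0.44 for Egr4 to 0.11 for Nr4a3 apart from Egr2. Egr2 had 0 counts in all 13 male libraries titled low and was above 0 in 5 of 14 titled high, with at most 51 counts (edgeR unadjusted p = 0.00946, adjusted p = 0.299). Of 37 other early response genes 33 had a positive log2 fold change by tag, with a median of 0.58, and 3 were called higher: Klf2, a flow-responsive endothelial factor (1.04, SE 0.19, adjusted p = 0.000752), Nfkbia, the inhibitor of NF-kB (0.80, SE 0.19, adjusted p = 0.0139), and Klf10 (0.93, SE 0.25, adjusted p = 0.0462). By sex 24 of 37 were positive and Klf4 was called higher in female libraries (0.76, SE 0.14, adjusted p = 0.000203).

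The other brakes were mixed. Of 9 ZFP36 relatives and decay factors Zfp36l1 was called higher in high male libraries (log2 fold change 0.68, SE 0.14, adjusted p = 0.00479) and 5 of 9 were positive. Of 10 other DUSP phosphatases 0 were called by tag, with Dusp6 at 0.63 (adjusted p = 0.489). Of 20 SRF, TCF and MAPK regulators Mkl2, an SRF coactivator, was called higher by tag (0.42, adjusted p = 0.0475) and Map2k2, a MAP kinase kinase, by sex (0.76, adjusted p = 0.0413). Heat shock genes were called in the sex comparison, 5 of 14 higher in female libraries, among them Hsp90ab1 (0.68, adjusted p = 7.14e-07), Hsp90aa1 (0.88, 6.72e-05) and the endoplasmic reticulum chaperone Hspa5 (0.83, 0.000382). By tag 0 of 14 were called, with Hspa1a, an inducible HSP70 gene, at 2.31 (SE 0.69, adjusted p = 0.0992).

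Other early response genes were also called among strains and by origin. Of 37 genes 6 were called among strains, with the smallest p for the clock gene Per1 (adjusted p = 1.04e-09), Ctgf (0.000663) and Plk2 (0.00494), and 4 were called higher in wild-derived strains, with the smallest p for Bhlhe40 (0.81, adjusted p = 0.00217), Ctgf (1.902, adjusted p = 0.00471) and Per1 (1.27, adjusted p = 0.0159). Dusp6 was the 1 other DUSP called among strains (adjusted p = 0.036), Dusp3 the 1 called higher in wild-derived strains (0.57, adjusted p = 0.036), Hspb1 the 1 heat shock gene called among strains (adjusted p = 0.0199) and Creb1, which encodes CREB, the 1 regulator called by origin (0.72, adjusted p = 0.0135). Between cortex and hippocampus 0 genes of these 7 lists were called.

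The genes most like the set in pattern were ranked by Pearson r of log2(CPM + 1) with the mean z score of the 10 members over 43 libraries, among 10639 other genes with a mean of at least 5 CPM. The highest were Cyr61 (r = 0.75), Klf2 (0.75), Adamts1 (0.70), Rhob (0.68), Drg2 (0.65), Plk2 (0.64), Alas2 (0.63), Dusp6 (0.63), Socs3 (0.63) and Dcps (0.62). Cyr61, Klf2, Rhob, Plk2, Socs3 and Dusp6 stood on the lists above. After centring both on the mean of each sex, Klf2 (0.75), Cyr61 (0.75) and Dusp6 (0.73) came first. The r is a description over libraries that differ in depth and in marker content.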

How the data were processed

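Sorted brain endothelial cells were profiled by total RNA sequencing (stranded low-input kit after ribosomal RNA depletion, single-end reads). Per the labels and the study's methods, the authors aligned reads with HISAT2 2.1.0 to mm10, handled alignments with SAMtools 1.9 and deposited one table of raw counts per gene made with featureCounts (Subread 1.4.4). The strand setting of the counting is not given in the sources used here, so antisense transcripts could not be told apart. No 2 of the 43 libraries held identical counts. Groups came from the sample titles, and the same titles name the columns of the table.

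From the deposited counts, CPM were computed from column totals with TMM scaling, and RPKM with the union exon length of GENCODE M21. After dropping genes that never reached 0.5 CPM, the remainder was tested with the edgeR 4.0.16 quasi-likelihood test (limma 3.58.1, R 4.3.3; trended dispersion, bias-adjusted deviances, no covariates, as the study used none), Benjamini-Hochberg adjusted over all genes tested, with calls at 0.05. DESeq2 1.42.0, other filters, scalings, covariates and left-out strains and libraries were alternatives. The code was tested on simulated counts. Levels are on the log2(CPM + 1) scale. All members, up to 3 called genes per list and direction by p, and the 10 genes most like the members were named. The members and lists were chosen with earlier results of these data known. Correlations used Python 3 code with 100000 permutations, and the endothelial marker mean was added after the data were examined.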

Additional observations from a re-analysis of the deposited data

Results flagged for a closer look

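Within each strain the lowest and highest library of each member were compared with Dixon's criterion on log2(CPM + 1), a gap test for groups of 4 to 10 samples that flags about 1 in 20 groups by chance. Of the 70 strain and member groups 9 were flagged.

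In DBA/2J the female hippocampus library stood above the 4 male libraries for Fos (596 CPM), Jun (1336 CPM), Junb (223 CPM), Dusp1 (214 CPM) and Zfp36 (289 CPM). It is the only female library of that strain, and it also had the largest total count of the series (49372356). Depth, sex and library cannot be told apart there. In WSB/EiJ the female cortex library stood below the other 5 for Dusp1 (11.7 CPM) and Zfp36 (6.48 CPM), the library where Atf3 had its maximum of 182 CPM. The male WSB/EiJ cortex library titled low stood below the other WSB/EiJ libraries for Ier2 (77.0 CPM), and the male CAST/EiJ hippocampus library titled low below the other CAST/EiJ libraries for Fosb (2.99 CPM).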

How the results depend on the processing

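Calls of single members depended on the fit. Of 100 recomputed counts of called members 76 stayed within 1.5 times the reported one, and 0 of the called members changed direction. Among members not called, 39 fitted values changed sign. By sex without DBA/2J, 6 of 10 members were higher in female libraries, against 10 in the main fit. The 76 include every fit for origin, region and the interactions, where the reported count was 0. All 24 counts that moved were by sex, by tag or among strains. By sex (2 called) the count fell to 1 with DESeq2, with DESeq2 size factors, without WSB/EiJ and without the female WSB/EiJ cortex library, and to 0 with the ribosomal-RNA-like share as covariate, without DBA/2J, without the female DBA/2J hippocampus library and among libraries titled high. It was 3, with Fos added, in 6 fits: default deviances, no filter, without A/J, thinned totals, strain and region as covariates, and the endothelial mean. By tag in male libraries (2 called) it was 7 with edgeR's default deviances, 6 with strain and region as block, 4 without WSB/EiJ, 1 without NOD/ShiLtJ or with the ribosomal-RNA-like share, and 0 without A/J, C57BL/6J or CAST/EiJ or with the endothelial or neuronal mean. Among strains (1 called) it was 7 with default deviances, 4 without a filter or in male libraries, 2 with the endothelial mean, and 0 to 5 when each DBA/2J or A/J library was left out (0 without the female A/J and 5 without the female DBA/2J library). For origin, region and the interactions it was 0 under every alternative run. The replicate block for region called 0 members and 57 genes against 22. The numbers in the titles do not say whether they mark a shared mouse. Default deviances called 10473 genes by sex against 830, 6712 against 218 by origin, 8023 against 22 by region, 13525 against 781 among strains and 8327 against 293 by tag. By sex the count of genes was 59 with the ribosomal-RNA-like share, 480 thinned to equal totals, 448 among high libraries, 532 without 129S1/SvImJ and 515 without DBA/2J. By tag it was 583 with the block, 80 and 23 with the endothelial and neuronal means, and 124 to 195 without CAST/EiJ, A/J, C57BL/6J, NOD/ShiLtJ or 129S1/SvImJ. By origin it was 123 in male, 44 in female and 136 in high libraries, among strains 474 in male and 193 in female libraries, and by region 7 in female libraries, 11 without NOD/ShiLtJ and 33 without a filter. DESeq2 called 395 genes by origin, 55 by region, 1314 among strains and 640 by tag. For the interactions the default deviances called 956, 380 and 16 genes and DESeq2 25, 21 and 42, against 1, 6 and 0. Fits with covariates dropped 1796 to 5997 genes that could not be fitted. The cause of these shifts was not tested. Alternatives with the marker means, and those by sex without single female libraries, were chosen after seeing the data. Fos, Fosb and Junb were each at 3 or fewer counts in 3 libraries, and Atf3 in 5. Such values lie near the floor, and the part of depth in them was not tested.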
